A study of Rattus norvegicus with 36 samples.

Results

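The miR-26 family was represented by its 5p arms, rno-miR-26a-5p and rno-miR-26b-5p, 2 of the 861 names in the deposited table, of which 706 were annotated rat miRNAs and 155 were predicted. Both were taken by name and not by any measured value. The study sequenced small RNA of 3 tissues taken from adult males of the Sprague-Dawley rat strain: prefrontal cortex (PFC), nucleus accumbens (NAc) and blood serum. There were 6 libraries in each of 6 groups and 36 in all. The rats were 8 weeks old on arrival. All of them, controls included, had 1 week of acclimation, a catheter placed in the jugular vein and 1 week of recovery. The heroin groups then took 0.075 mg/kg of heroin per infusion, an opioid that animals will work to obtain, for 6 hours a day over 10 daily sessions, and the saline groups took saline over 10 days. Tissue and trunk blood were collected within 60 minutes of the last session. RNA from PFC and NAc was total RNA of the dissected tissue, whereas RNA from serum was extracted with a kit for exosomal RNA, so tissue and extraction cannot be told apart in any comparison of serum with brain. Within a tissue, libraries 1 to 6 are heroin and 7 to 12 saline, and the labels call them biological replicates.

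A miRNA pairs with its target mRNAs mainly through its seed, bases 2 to 8 from the 5′ end, so miRNAs that share a seed are treated as one family with overlapping targets. miR-26 is abundant in many tissues, is known for repressing Ezh2, a histone methyltransferase of the Polycomb repressive complex, and has been studied in neuronal differentiation. Its genes lie in introns of genes for small C-terminal domain phosphatases, which act with the repressor REST on neuronal genes, and in zebrafish miR-26 represses its own host gene during neurogenesis.

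The sequences show how little separates the members. In RefSeq (rat build GRCr8) rno-miR-26a-5p lay at chr8:127633063-127633084 on the plus strand, within Ctdspl, and rno-miR-26b-5p at chr9:83425723-83425743 on the plus strand, within Ctdsp1. Both sequences are given 5′ to 3′ with the seed in capitals:
rno-miR-26a-5p: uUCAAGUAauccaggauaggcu
rno-miR-26b-5p: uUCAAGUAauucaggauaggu

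The members were 22 and 21 nt long and shared their first 10 bases. Over the 21 positions compared, counted from 1 at the 5′ end, 2 differed, C11U and C21U, an identity of 90.5%. No other of the 693 mature rat miRNAs in the RefSeq table carried this seed. A read of 18 bases from the 5′ end, the shortest insert kept, covers position 11 but not position 21, so the members can be 1 base apart in a read. The sources used here do not say how the authors counted reads with mismatches. The 3p arms, which come from the other side of each hairpin and are usually the less abundant strand, are shown because they differ from each other within their seeds (in capitals):
rno-miR-26a-3p: cCUAUUCUugguuacuugcac
rno-miR-26b-3p: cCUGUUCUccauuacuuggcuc

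Total counts per library ran from 3419438 to 20773798 in PFC, from 5894542 to 24776772 in NAc and from 157415 to 2777850 in serum. Some libraries stood apart. By the mean correlation with the other libraries of their tissue, PFC saline 8 (0.916) and 12 (0.931) lay below the other PFC libraries (0.959 to 0.976), and serum saline 12 (0.905) lay below the other serum libraries (0.931 to 0.961). On neuronal and red cell markers the tissues matched their labels. The sum of 4 neuronal miRNAs was 181302 to 339578 CPM (a count divided by its library's total, times 1000000) in brain and 11985 to 50780 CPM in serum. Of that sum rno-miR-128-3p alone held 46801 of 50780 CPM in serum saline 11 and 31997 of 32176 CPM in serum heroin 2. The median log2 fold change of the 4 was -7.47 in serum against PFC of saline rats, so the serum sum does not stand for each of them. The sum of 3 red cell miRNAs was 70.3 to 705.6 CPM in brain and 27713 to 84687 CPM in serum. No marker was at 0 across a group. Striated muscle markers summed to 15608 to 104935 CPM in serum and 23.3 to 311.8 CPM in brain. The 2 endothelial miRNAs overlapped, at 3045 to 6624 CPM in serum and 3094 to 7857 CPM in brain.

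rno-miR-26a-5p was among the most abundant miRNAs of every tissue, and rno-miR-26b-5p was present at a few percent of its level. Together they took 2.83% ± 0.734 (SD, n = 12) of the counts in PFC, 2.95% ± 0.598 in NAc and 5.84% ± 2.32 in serum. Some names repeat each other's counts, and library totals include both, which lowers CPM and shares to an extent that differs between libraries. In PFC heroin 1 rno-miR-9a-5p held 178054 CPM and its repeat rno-miR-9b-3p 177550 CPM. In serum saline 12 rno-miR-1-3p and its repeat rno-miR-3571 held 71082 CPM each. rno-miR-26a-5p ranked between 5 and 11 among all names in the PFC libraries, between 7 and 12 in NAc and between 3 and 23 in serum. The ranks of rno-miR-26b-5p were 89 to 174, 81 to 111 and 34 to 98 in the same tissues.

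In PFC the lowest, median and highest level of rno-miR-26a-5p was 21264, 28134 and 45111 CPM in heroin rats and 16593, 26191 and 34111 CPM in saline rats. In NAc these were 19422, 26220 and 38846 CPM in heroin rats and 22860, 31765 and 36706 CPM in saline rats. All 4 brain groups overlapped. In serum they were 37676, 52036 and 73181 CPM in heroin rats and 7318, 62032 and 85951 CPM in saline rats. Serum saline 12, at 7318 CPM, was lower than every brain library, while the other 5 serum saline libraries lay between 47124 and 85951 CPM, above all brain libraries.

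In PFC the lowest, median and highest level of rno-miR-26b-5p was 329.4, 466.6 and 873.0 CPM in heroin rats and 163.7, 466.3 and 619.8 CPM in saline rats. In NAc these were 338.7, 466.9 and 895.7 CPM in heroin rats and 396.6, 621.5 and 770.6 CPM in saline rats. The 2 lowest brain libraries were PFC saline 8 (163.7 CPM) and 12 (272.2 CPM), the same libraries that stood apart. In serum the values were 1760, 3367 and 4624 CPM in heroin rats and 315.6, 3751 and 4650 CPM in saline rats. Serum saline 12 fell within the brain range for this member, and the other 11 serum libraries lay above every brain library. How many other miRNAs lay apart in this way was not counted, and most miRNAs were called between serum and brain. At the depth of serum saline 12 its 190 counts had a 95% exact (Clopper-Pearson) binomial interval of 272.3 to 363.8 CPM, which covers counting error only.

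**Figure D1:**
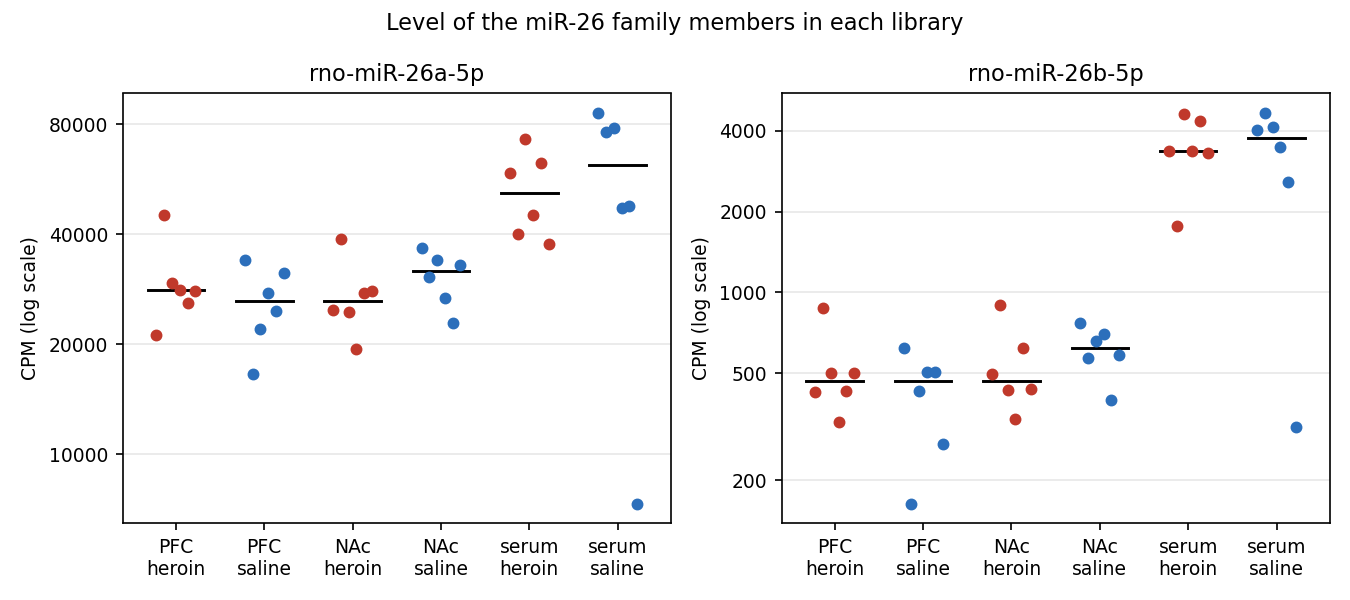
Level of rno-miR-26a-5p (left) and rno-miR-26b-5p (right) in CPM on a log scale in each of the 36 libraries, by tissue and treatment, with heroin in red, saline in blue and the group median as a bar. The brain groups overlap for both members. Serum saline 12 is the lowest serum point in each panel; the other 11 serum points lie above all brain points for rno-miR-26b-5p, and for rno-miR-26a-5p 3 serum heroin points (37676 to 45069 CPM) lie below the highest brain point (45111 CPM).

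The order of the group means was serum saline, serum heroin, NAc saline, PFC heroin, NAc heroin and PFC saline for rno-miR-26a-5p, at 57146 ± 29402, 52963 ± 14175, 30640 ± 5095, 29672 ± 8094, 27212 ± 6472 and 26074 ± 6389 CPM (SD, n = 6). Of the neighbours in that order, serum heroin and NAc saline did not overlap and all others did. For rno-miR-26b-5p the order was serum heroin, serum saline, NAc saline, NAc heroin, PFC heroin and PFC saline, at 3459 ± 1008, 3193 ± 1576, 612.6 ± 129, 536.7 ± 199, 510.9 ± 188 and 415.5 ± 168 CPM. All neighbours overlapped there, serum saline and NAc saline through serum saline 12. In dissected tissue a difference in the number of cells of a type and in the RNA per cell cannot be told apart. In serum, extracted with a kit for exosomal RNA, the source of a difference was not tested.

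The first comparison asked whether heroin self-administration changed the family in each tissue. No change was called for either member in any tissue. In PFC the log2 fold change of heroin over saline was 0.24 ± 0.27 (SE) for rno-miR-26a-5p, with a 95% interval of -0.33 to 0.81, and 0.29 ± 0.36 for rno-miR-26b-5p, with an interval of -0.47 to 1.06. The adjusted p was 0.995 for both (edgeR's quasi-likelihood test with Benjamini-Hochberg adjustment over all miRNAs tested). The size for rno-miR-26b-5p depended on PFC saline 8 and 12, without which it was -0.065. In NAc the fold changes were -0.02 ± 0.14 (interval -0.32 to 0.28) for rno-miR-26a-5p and -0.04 ± 0.19 (interval -0.46 to 0.37) for rno-miR-26b-5p, with edgeR adjusted p of 0.948 and 0.940. The NAc intervals were the narrowest of the 3 tissues. In serum rno-miR-26a-5p differed by -0.21 ± 0.45 (interval -1.16 to 0.74, edgeR adjusted p = 0.886) and rno-miR-26b-5p by -0.02 ± 0.44 (interval -0.96 to 0.92, edgeR adjusted p = 0.992). Without serum saline 12 the serum values were -0.43 and -0.25. Over all alternatives they ranged from -0.77 to 0.19 for rno-miR-26a-5p and from -0.50 to 0.43 for rno-miR-26b-5p. The serum intervals reached down to -1.16 and -0.96 and up to 0.74 and 0.92, so neither a fall nor a rise of that size is excluded. The PFC intervals reached up to 0.81 and 1.06, so a rise of that size is not excluded there.

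These results sit against a background without calls. Among all miRNAs edgeR called 0 of 455 in PFC, 0 of 480 in NAc and 0 of 229 in serum (0% each), with 16, 30 and 11 at an unadjusted p under 0.05. DESeq2 called 0, 0 and 4, and limma-voom and limma on log2(TPM + 1) called 0 in each tissue. Whether the heroin effect differed between tissues was tested as an interaction. For rno-miR-26a-5p the effect in NAc minus that in PFC was -0.22 ± 0.30, that in serum minus PFC -0.33 ± 0.52 and that in serum minus NAc -0.08 ± 0.50 on the log2 scale. For rno-miR-26b-5p the same differences were -0.31 ± 0.41, -0.23 ± 0.58 and 0.15 ± 0.52. None passed, with edgeR adjusted p between 0.852 and 1.00, and among all miRNAs edgeR called 0 of 506, 0 of 462 and 0 of 489 (0% each), with 19, 25 and 39 at an unadjusted p under 0.05. DESeq2 called 0, 2 and 1 there, and limma-voom and limma on log2(TPM + 1) called 0.

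The brain regions were compared next. NAc and PFC held similar levels, with no call for either member. In saline rats rno-miR-26a-5p was 0.08 ± 0.25 (log2, SE) higher in NAc, with an interval of -0.46 to 0.62 (edgeR adjusted p = 0.876), and rno-miR-26b-5p was 0.36 ± 0.35 higher, with an interval of -0.38 to 1.10 (edgeR adjusted p = 0.537). In heroin rats the values were -0.12 ± 0.17 (interval -0.47 to 0.24, edgeR adjusted p = 0.767) and 0.08 ± 0.23 (interval -0.40 to 0.56, edgeR adjusted p = 0.903). The background was 33 calls of 467 (7.07%) in saline rats, 17 higher and 16 lower in NAc, and 8 of 464 (1.72%) in heroin rats, 3 higher and 5 lower. With scaling by library totals alone the split of calls was 17 higher and 9 lower in saline rats and 4 and 4 in heroin rats.

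Serum separated the members. rno-miR-26b-5p was higher in serum than in brain in all 4 comparisons, while the difference of rno-miR-26a-5p did not pass the test in any of them. In saline rats rno-miR-26b-5p was higher in serum by 2.56 ± 0.57 (log2, SE) against PFC and by 2.01 ± 0.45 against NAc, with edgeR adjusted p of 0.000295 and 0.000532. In heroin rats it was higher by 2.12 ± 0.31 and 1.55 ± 0.26, with edgeR adjusted p of 2.51e-06 and 1.60e-05. These calls are read against a background where most miRNAs were called: 348 of 407 (85.5%) and 384 of 424 (90.6%) against PFC and NAc in saline rats, and 367 of 411 (89.3%) and 405 of 439 (92.3%) in heroin rats. A call alone therefore does not set this miRNA apart. Its direction was that of the smaller group, since 137, 143, 143 and 142 of those calls were higher in serum.

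For rno-miR-26a-5p the difference between serum and brain was 0.86 ± 0.51 against PFC and 0.54 ± 0.42 against NAc in saline rats, with intervals of -0.20 to 1.91 and -0.35 to 1.43 (edgeR adjusted p = 0.119 and 0.231). In heroin rats it was 0.22 ± 0.29 and -0.14 ± 0.23, with intervals of -0.38 to 0.82 and -0.62 to 0.35 (edgeR adjusted p = 0.477 and 0.570). Both the sign and the call depended on how the libraries were scaled. With scaling by library totals alone the 4 values, in the same order, were 1.13, 0.90, 0.84 and 0.96, with edgeR adjusted p of 0.0327, 0.0546, 0.00197 and 0.000497. With median-of-ratios factors they were 0.05, -0.18, -0.28 and -0.28, and none passed. The median miRNA moved with the scaling too: it lay at -1.45, -1.91, -1.57 and -2.18 in the main fits, at -1.38, -1.58, -0.98 and -0.95 with library totals and at -2.25, -2.54, -2.13 and -2.25 with median-of-ratios factors. Measured against that median, rno-miR-26a-5p was higher by 2.31, 2.45, 1.79 and 2.04 and rno-miR-26b-5p by 4.01, 3.91, 3.70 and 3.73. In serum alone 229 miRNAs passed the low-count filter, against 407 to 439 in these comparisons. The median thus includes miRNAs that entered through brain and are low in serum, which lowers it. A miRNA well counted in both tissues would lie above it, so these distances do not set the members apart. The distance of rno-miR-26a-5p from the median was 2.51, 2.48, 1.82 and 1.92 with library totals. With median-of-ratios factors it was 2.30, 2.36, 1.85 and 1.97. It moved less than the fold changes did because a scaling factor shifts all miRNAs of a library alike. Its steadiness follows from the measure and gives no support for a difference.

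**Figure D2:**
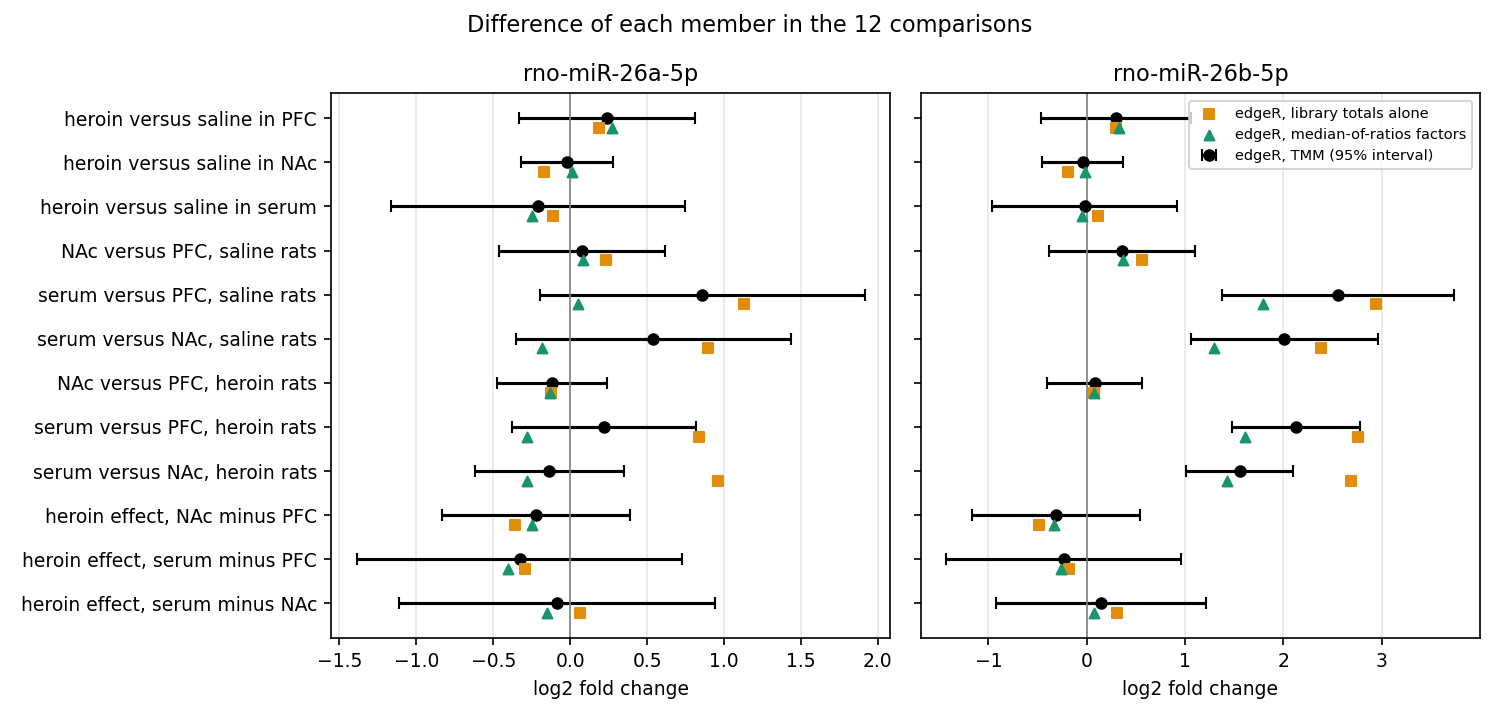
Log2 fold change of rno-miR-26a-5p (left) and rno-miR-26b-5p (right) in the 12 comparisons, with the edgeR estimate and its 95% interval in black and the estimates under 2 other scalings as coloured marks. The intervals of rno-miR-26b-5p exclude 0 in the 4 comparisons of serum with brain and include it in the other 8, and those of rno-miR-26a-5p include 0 in all 12.

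The level of rno-miR-26b-5p as a share of rno-miR-26a-5p within a library does not depend on scaling, and it told serum from brain without overlap. It was 1.71% ± 0.298 (SD, n = 6) in PFC of heroin rats and 1.58% ± 0.515 in PFC of saline rats. In NAc it was 1.94% ± 0.299 and 2.00% ± 0.325. In serum it was 6.59% ± 1.49 in heroin rats and 5.52% ± 1.10 in saline rats. The lowest serum library, serum saline 12 at 4.31%, was above the highest brain library, NAc saline 10 at 2.61%. Thus in serum saline 12 both members were low, but their ratio lay at the low end of the serum range and outside the brain range.

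In saline rats the ratio was 3.63-fold higher in serum than in PFC and 2.74-fold higher than in NAc, and in heroin rats 3.82-fold and 3.36-fold higher. Each of the 4 differences gave p = 0.00216 in an exact two-sided permutation test, the smallest p that 6 against 6 libraries allow, and 0.00487 after Benjamini-Hochberg adjustment over the 9 comparisons of the ratio. All 6 serum libraries lay above all 6 brain libraries in each. Ratios of other pairs of miRNAs were not computed, and 85.5% to 92.3% of all miRNAs were called between serum and brain. A ratio without overlap therefore does not set this pair apart. The log2 ratio of heroin rats minus that of saline rats was 0.17 in PFC (exact permutation p = 0.496, adjusted p = 0.558). In NAc it was -0.05 (exact permutation p = 0.708, adjusted p = 0.708) and in serum 0.25 (exact permutation p = 0.197, adjusted p = 0.295). None passed, and the groups overlapped in every tissue. The PFC difference turned to -0.18 without PFC saline 8 and 12, whose ratios of 0.987% and 0.867% were the lowest of all 36. NAc exceeded PFC by 0.40 in saline rats (exact permutation p = 0.177, adjusted p = 0.295) and by 0.18 in heroin rats (exact permutation p = 0.238, adjusted p = 0.306).

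**Figure D3:**
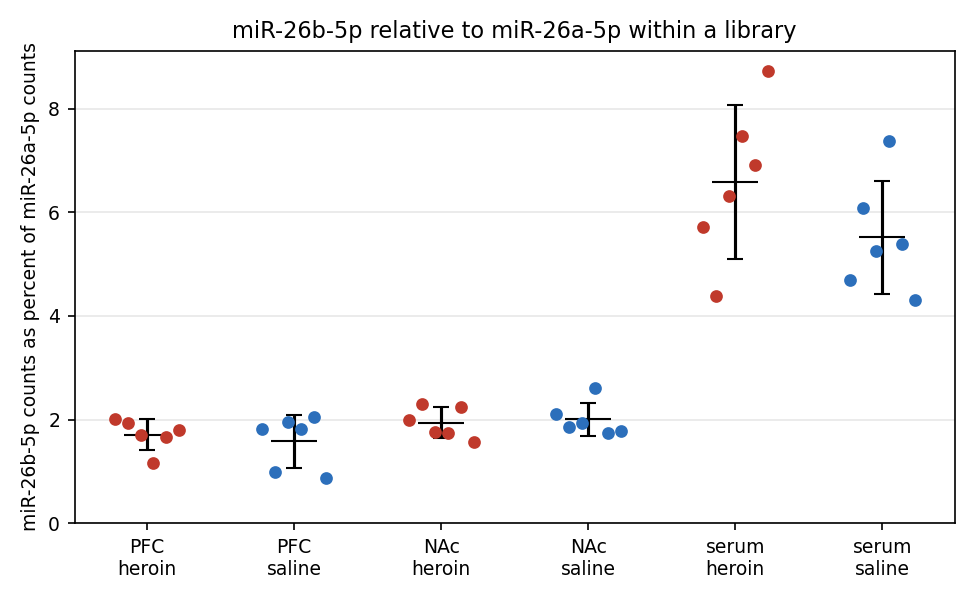
Counts of rno-miR-26b-5p as a percent of the counts of rno-miR-26a-5p in each library, by tissue and treatment, with heroin in red, saline in blue and black bars for the mean and SD of 6 libraries. Every serum library lies at 4.31% or more and every brain library at 2.61% or less.

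The 3p arms were near the limit of counting, and neither passed the low-count filter of any comparison. rno-miR-26a-3p had 75 counts in all PFC libraries together against 3480109 for its 5p arm, or 21.6 per 1000000 counts of the 5p arm, with an exact binomial 95% interval of 17.0 to 27.0. In NAc it had 97 against 4369786 (22.2 per 1000000) and in serum 5 against 421963 (11.8 per 1000000, interval 3.85 to 27.7), with 9 of 12 serum libraries at 0. rno-miR-26b-3p had fewer 5p counts to be set against and a larger 3p share: 85 against 60239 in PFC (1409 per 1000000, interval 1126 to 1742), 118 against 85019 in NAc (1386 per 1000000, interval 1147 to 1660) and 6 against 25517 in serum (235.1 per 1000000, interval 86.3 to 511.6). Pooled over both treatments the serum interval of rno-miR-26b-3p lay below both brain intervals, with no test over samples. By treatment this was not so everywhere: in heroin rats serum gave 317.8 (interval 103.2 to 741.4), which overlaps 827.7 in PFC (540.8 to 1213). In saline rats the values were 102.2 in serum (interval 2.59 to 569.0) and 2041 in PFC (1554 to 2631). PFC saline 8 gave 22 of the 59 counts of rno-miR-26b-3p in PFC saline rats, beside the lowest count of rno-miR-26b-5p in that group, 1059.

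The family was set beside miRNAs with related roles. Of 5 other miRNAs reported to target Ezh2 (rno-miR-101a-3p, rno-miR-101b-3p, rno-miR-138-5p, rno-miR-214-3p and rno-miR-98-5p), 4 were tested for heroin in each tissue and none was called, with median log2 fold changes of -0.02, 0.07 and -0.30 beside -0.05, -0.07 and -0.08 for all miRNAs tested in PFC, NAc and serum. In each comparison of serum with brain, 3 fell and 2 rose, where 85.5% to 92.3% of all miRNAs were called and 51.8% to 59.9% were called lower in serum, so 5 calls of 5 do not set the list apart. The mean of rno-miR-101a-3p was 4353 to 5223 CPM in the brain groups and 492.4 to 586.2 CPM in the serum groups, against PFC of saline rats a fall of -3.27 ± 0.41 (log2, SE; edgeR adjusted p = 3.05e-07). rno-miR-98-5p, a let-7 family member, rose by 3.63 ± 0.58 (edgeR adjusted p = 6.31e-06) in the same comparison, and rno-miR-214-3p by 7.25 ± 0.53 (edgeR adjusted p = 5.25e-10). Within each tissue 4 of the 5 passed the low-count filter, while all 5 passed in each comparison of serum with brain. For a member that entered only through the tissue where it is high, the direction was fixed in advance. The size then rests on few counts in the other tissue, which bears most on a difference as large as that of rno-miR-214-3p.

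Of 5 miRNAs tied to REST and the small phosphatases (rno-miR-124-3p, rno-miR-9a-5p, rno-miR-9a-3p, rno-miR-132-3p and rno-miR-212-3p), all 5 fell in serum against brain in each of the 4 comparisons, with median log2 fold changes between -7.71 and -6.81. Only 1 of the 5 passed the low-count filter in serum alone, while all 5 passed in each brain region. The others entered these comparisons through brain, where they are higher. The direction of their fall was therefore fixed in advance, and its size rests on few serum counts. Of all miRNAs tested, 51.8%, 56.8%, 54.5% and 59.9% were called lower in serum against PFC and NAc of saline rats and PFC and NAc of heroin rats. These are largely neuronal miRNAs, and rno-miR-124-3p and rno-miR-9a-5p are also 2 of the neuronal markers above. rno-miR-9a-5p, which targets REST itself, averaged 138584 to 161336 CPM in the brain groups. In serum it ran from 70.9 to 146.4 CPM in heroin rats and from 38.1 to 3195 CPM in saline rats. None of the tested members was called for heroin, 5 of 5 being tested in each brain region and 1 in serum. That one was rno-miR-9a-5p, at -3.20 ± 0.85 (edgeR adjusted p = 0.124). The serum saline libraries differed among themselves: the 5 miRNAs summed to 1122, 3293 and 832.1 CPM in serum saline 10, 11 and 12, to 62.1 to 139.8 CPM in the other 3, and to 82.8 to 248.8 CPM in serum of heroin rats.

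Of 15 broadly expressed abundant miRNAs, all tested in every comparison, 7 rose in each comparison of serum with brain, and 5, 6, 6 and 7 fell against PFC and NAc of saline rats and PFC and NAc of heroin rats. Their medians were 0.72, 0.46, 0.47 and -0.10, beside 0.86, 0.54, 0.22 and -0.14 for rno-miR-26a-5p. These 12 to 14 calls of 15 stand beside 85.5% to 92.3% of all miRNAs called, so their share is near the background. None was called for heroin in any tissue. rno-miR-16-5p, which like rno-miR-26b-5p was higher in serum, rose by 3.26 ± 0.54 against PFC of saline rats (edgeR adjusted p = 1.18e-05), and rno-miR-103-3p fell by 2.97 on the log2 scale (edgeR adjusted p = 4.75e-05).

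Likeness was taken among the 85 miRNAs whose mean reached 100 CPM in every group. It was measured as the root mean square difference of log2(CPM + 1), each miRNA centred on its own mean over the 36 libraries, so a smaller value means a more similar pattern. Most like rno-miR-26a-5p were rno-miR-30e-5p at 0.577, rno-miR-186-5p at 0.626, rno-let-7i-5p at 0.636, rno-miR-3596a at 0.637 and rno-miR-148b-3p at 0.645. The counts of rno-miR-3596a repeated those of rno-let-7a-5p, so that place stands for both names. Most like rno-miR-26b-5p were rno-miR-150-5p at 0.627, rno-miR-16-5p at 0.631, rno-let-7d-5p at 0.644, rno-miR-98-5p at 0.670 and rno-miR-21-5p at 0.675, whose means were all higher in the serum groups than in the brain groups. The 2 members shared none of these neighbours. Their difference from each other was 0.890, which placed rno-miR-26b-5p at 15 on the list of rno-miR-26a-5p and rno-miR-26a-5p at 9 on the list of rno-miR-26b-5p. Serum saline 12 weighed heavily on these places. Its centred value was -2.19 for rno-miR-26a-5p, -0.01 for rno-miR-30e-5p, 0.86 for rno-let-7i-5p and -1.70 for rno-miR-148b-3p. It was -1.48 for rno-miR-26b-5p and 1.71 for rno-miR-21-5p. Places without that library were not computed, so the order of the neighbours is not secure. Libraries of a tissue share their extraction, and serum libraries are shallower than brain libraries, so the 36 points are not independent of the contrast between serum and brain. That contrast is not in every neighbour: the serum means of rno-miR-148b-3p (1579 and 1743 CPM) lay within its brain means (1364 to 2101 CPM).

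**Figure D4:**
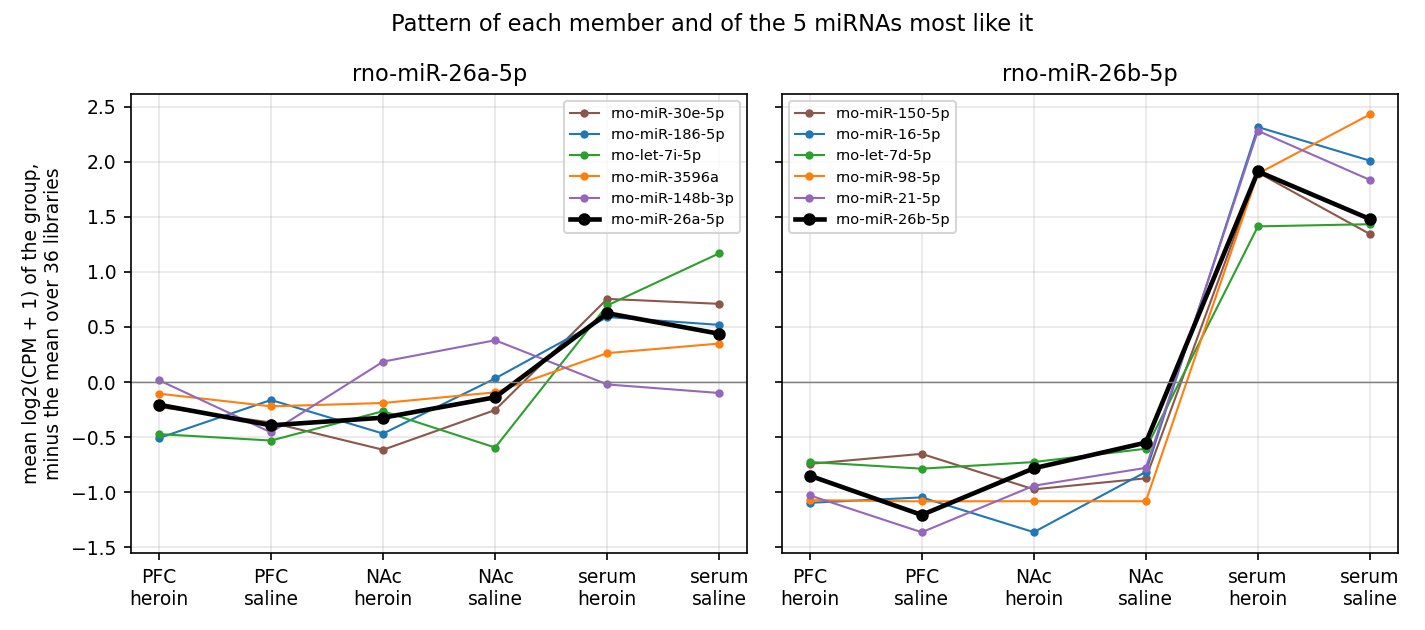
Mean log2(CPM + 1) of each group minus the mean over 36 libraries, for rno-miR-26a-5p (left) and rno-miR-26b-5p (right) in black and for the 5 miRNAs most like each in colour. The line of rno-miR-26b-5p and its neighbours climbs steeply from brain to serum, and that of rno-miR-26a-5p does so less.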

How the data were processed

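The authors deposited 1 table with a read count for each mature miRNA in each of the 36 libraries, and these counts were used unchanged. The TPM values deposited beside them, per the file headers, equalled each count's share of its library total, scaled to CPM (largest relative difference 4.93e-15), and so hold no length term. The submitters' processing notes name Bowtie and the build rn6. No version is given in the sources used here, nor how reads fitting more than 1 miRNA were handled. The 31 pairs of names that repeat each other's counts within 5% (names with at least 500 counts) include neither member. Both names of each pair are in the library totals used for CPM, shares and ranks.

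Fits used edgeR 4.0.16 in R 4.3.3 and only the groups compared (quasi-likelihood F test; TMM; filterByExpr, minimum count 10; Benjamini-Hochberg over all miRNAs tested, threshold 0.05). SEs were derived from the fold change and its F statistic. DESeq2 1.42.0, limma 3.58.1, other scalings, no filter, repeated names counted once, 1 fit over all 6 groups, a replicate block and left-out libraries were the alternatives. The edgeR step was tested on simulated counts. CPM and shares were computed with Python 3.11.15 and pandas 2.3.3, and exact tests and intervals with SciPy 1.17.1.

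Named are both members, the miRNAs of the lists and the 5 nearest by likeness. Members, lists and libraries to leave out were chosen with earlier results of these data known, so no list gives independent support. Sequences are from RefSeq (GRCr8), used here for names, neighbours and sequence only, since the notes name rn6. Both members matched by name. Libraries held 157415 to 24776772 counts. The counting interval of the lowest member count, 190, is about 14.5% of its value on either side, and intervals do not cover differences between animals.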

Additional observations from a re-analysis of the deposited data

Results flagged for a closer look

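A library whose gap to its nearest neighbour took a large part of its group's range was looked for in 18 sets of 6 values (2 members and their ratio in 6 groups), and 4 were found; chance gives about 1 in 20. Serum saline 12 lay far below the rest of its group for rno-miR-26a-5p, at 7318 CPM, and for rno-miR-26b-5p, at 315.6 CPM. In that library the striated muscle markers summed to 104935 CPM, the highest of all serum libraries, and the leukocyte markers to 2231 CPM and the platelet markers to 1339 CPM, the lowest. Their part in its low miR-26 was not tested. Serum heroin 2 lay below the rest of its group for rno-miR-26b-5p, at 1760 CPM; rno-miR-148a-3p took 381390 CPM there, and its part was not tested. PFC heroin 4 had the lowest log2 ratio of rno-miR-26b-5p to rno-miR-26a-5p of its group, at -6.42, with rno-miR-26a-5p near the group's median (28215 CPM) and rno-miR-26b-5p the lowest (329.4 CPM).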

How the results depend on the processing

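rno-miR-26b-5p was called higher in serum than in brain in 87 of 87 alternatives (largest adjusted p 0.00556), and rno-miR-26a-5p in 7 of 87. Neither member was called in 336 alternatives for heroin (smallest adjusted p 0.179) or in 86 for NAc against PFC. The cause of each change below was not tested.

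Counts of calls moved as follows. Heroin in serum went from 0 to 2 with no filter, 4 with DESeq2, 4 with 1 fit over all groups and 2 without serum saline 10, 11 and 12, and ranged from 0 to 2 with 1 library left out. NAc against PFC went from 33 to 58 (DESeq2) and 56 (without PFC saline 8 and 12) in saline rats, ranging from 25 to 52, and from 8 to 38 (DESeq2), 14 and 15 (TPM + 1 and + 0.5) and 53 (replicate block) in heroin rats, ranging from 6 to 38. The 52 came without PFC saline 12 and the 38 without NAc heroin 2. The interactions went from 0 to 2 (serum minus PFC) and 1 (serum minus NAc) with DESeq2, ranging from 0 to 2 and from 0 to 3.

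Values of rno-miR-26a-5p changed sign or call as follows. Heroin in NAc was 0.012 with median-of-ratios factors and with DESeq2, 0.0072 with no filter and 0.060 in 1 fit over all groups, ranging from -0.077 to 0.030. Heroin in serum was 0.064 (voom) and 0.19 (both TPM pseudocounts), ranging from -0.43 to 0.015. NAc against PFC in saline rats was -0.051 without PFC saline 8 and 12, ranging from -0.081 to 0.16. Serum against brain passed with library totals (1.13 for PFC, saline) and, in heroin rats, with library totals (0.84 for PFC, 0.96 for NAc) and TPM (0.83 and 0.95 under both pseudocounts). It was -0.18 for NAc in saline rats and -0.28 for PFC in heroin rats with median-of-ratios factors and with DESeq2, and -0.013 for PFC in heroin rats with no filter, where it ranged from -0.35 to 0.35, and from -0.24 to 0.40 for NAc. The interaction of serum minus PFC was 0.000398 and 0.000405 (TPM + 1 and + 0.5), and that of serum minus NAc 0.062 (library totals), 0.25 (voom), 0.37 (TPM) and 0.15 (replicate block), ranging from -0.43 to 0.0092.

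Values of rno-miR-26b-5p changed sign for heroin in PFC (-0.065 without PFC saline 8 and 12), in NAc (0.039 in 1 fit over all groups; range -0.17 to 0.030) and in serum (0.12 with library totals, 0.011 with no filter, 0.31 with voom, 0.43 with TPM; range -0.25 to 0.14), and for NAc against PFC in heroin rats (range -0.11 to 0.16). The interaction of serum minus PFC was 0.076 and 0.075 (TPM + 1 and + 0.5) and 0.11 (without PFC saline 8 and 12), and that of serum minus NAc -0.022 (no filter) and -0.25 (without serum saline 10, 11 and 12), ranging from -0.22 to 0.27. The log2 ratio of the members for heroin was -0.18 in PFC without PFC saline 8 and 12 and ranged from -0.10 to 0.031 in NAc.

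With replicate numbers as a block the ratio of serum to brain kept 1.86, 1.45, 1.93 and 1.75, but a sign-flip test of 6 pairs cannot go below an exact p of 0.03125, or 0.0703 after adjustment. Same-numbered libraries correlated at -0.145 to 0.636, and 1 to 4 of 6 correlated best with their own number. It was 4 of 6 for NAc with PFC in heroin rats and for serum with PFC in saline rats. These values do not settle whether a number marks the same animal, and the labels do not say so. The main tests therefore used no pairs. Serum depth limits the 3p arms.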
